A study of Mus musculus with 5 samples.

Results

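ATRX peaks of cultured mouse neurons at day 7 in vitro (DIV7) were compared with those at day 14 (DIV14), both in neurons carrying mCherry. The members are all peaks on chromosomes 1 to 19 of the DIV7 list (207423 peaks) and of the DIV14 list (96230 peaks), 303653 of the 651098 peaks in the 4 lists of the series. A peak was called shared when at least 1 bp of it lay under a peak of the other list, and DIV7-only or DIV14-only otherwise. Most comparisons were made with the full lists and again at equal size, with the 96230 DIV7 peaks of lowest p-value against the whole DIV14 list. Some used the full lists only: overlap by fragments, folds and summit distances of shared peaks, peak places within shared genes, and bins without a DIV14 peak. By the title of the series, the study asked how a hominoid-specific pathway sets the tempo of synapse maturation, and the DIV7 library is its younger time point.

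The neurons came from C57BL6/J embryos of E15.5-17.5 (days of gestation), were kept in Neurobasal A with B27, glutamine and fetal bovine serum, and were infected with lentivirus on day 5 in vitro. mCherry, a red fluorescent protein, was the only construct named for both libraries, so the DIV7 neurons were collected 2 days and the DIV14 neurons 9 days after infection. Chromatin was cut enzymatically, precipitated with an ATRX antibody and sequenced from both ends, with input DNA as the background. There was 1 library at each age, and the labels do not say how many embryos or cultures it pooled, so age and library cannot be told apart and no test between ages was possible. Intervals below are 95% intervals for counting error only.

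ATRX is a SWI/SNF-type chromatin remodeller that, with the chaperone DAXX, deposits histone H3.3 at pericentromeric repeats, telomeres and other repeats. It is also found at G-rich sequences that can form G-quadruplexes and at heterochromatin carrying H3K9me3, and its loss in people causes an intellectual disability syndrome. In neurons it is known for roles in survival of progenitors, chromatin compaction and synaptic gene regulation.

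Peaks at gene starts illustrate the kinds of site that the lists held. The 250 bases before the start are shown for 4 genes (RefSeq, GRCm38.p6), 5′ to 3′ on the gene's strand, with CG dinucleotides in capitals because the occupied share of starts varied with CpG number in both lists. Cited2, chr10:17722978-17723227 on the plus strand, had peaks at both ages. Ino80, chr2:119477688-119477937 on the minus strand, had a peak in the DIV14 list only. Arl13b, chr16:62847041-62847290 on the minus strand, and the odorant receptor gene Olfr1392, chr11:49293047-49293296 on the plus strand, had a peak in the DIV7 list only.
Cited2: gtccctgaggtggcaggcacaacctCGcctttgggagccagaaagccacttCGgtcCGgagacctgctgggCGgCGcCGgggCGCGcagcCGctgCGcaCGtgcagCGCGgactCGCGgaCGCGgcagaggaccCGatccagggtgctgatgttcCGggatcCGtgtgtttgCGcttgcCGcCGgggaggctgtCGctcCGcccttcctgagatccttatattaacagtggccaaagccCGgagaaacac
Ino80: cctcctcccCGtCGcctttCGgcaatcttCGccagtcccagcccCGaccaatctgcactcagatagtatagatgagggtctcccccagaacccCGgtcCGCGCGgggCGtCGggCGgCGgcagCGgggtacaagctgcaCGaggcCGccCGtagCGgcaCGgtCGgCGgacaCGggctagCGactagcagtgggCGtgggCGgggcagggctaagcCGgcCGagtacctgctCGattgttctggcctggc
Arl13b: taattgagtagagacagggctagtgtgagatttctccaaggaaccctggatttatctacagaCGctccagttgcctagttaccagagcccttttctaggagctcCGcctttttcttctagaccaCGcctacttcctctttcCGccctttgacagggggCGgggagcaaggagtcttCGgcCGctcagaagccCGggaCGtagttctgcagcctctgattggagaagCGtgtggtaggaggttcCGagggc
Olfr1392: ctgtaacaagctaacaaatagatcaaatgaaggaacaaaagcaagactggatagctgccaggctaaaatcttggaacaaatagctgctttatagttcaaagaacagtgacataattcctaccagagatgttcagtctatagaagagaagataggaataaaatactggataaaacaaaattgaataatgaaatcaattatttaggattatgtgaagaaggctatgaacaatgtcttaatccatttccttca
These stretches hold 26 CG dinucleotides at Cited2, 28 at Ino80, 11 at Arl13b and 0 at Olfr1392. At Cited2, which encodes a co-regulator that binds CBP and p300, the DIV7 peak (17722878 to 17723920) and the DIV14 peak (17721895 to 17725035) both ran over the start. The Ino80 peak (119477372 to 119478575) had its summit 2 bp from the start of this remodeller gene. The Arl13b peak (62846498 to 62846962) had its summit 303 bp inside the gene, which encodes a GTPase of the primary cilium. The Olfr1392 peak (49293442 to 49293689) had its summit 293 bp inside the gene.

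The lists rest on different depths. Fold and p-value of a peak together give the number of fragments at its summit, which was at least 3 with a median of 4 at DIV7, and at least 7 with a median of 9 at DIV14. The usual background was 1.28 fragments at DIV7 and 3.56 at DIV14. Both lists reach an uncorrected p of 0.05, and a q (a p-value corrected over the genome) of at most 0.05 was reached by 385 DIV7 peaks (0.186%, 0.168 to 0.205) and 4029 DIV14 peaks (4.19%, 4.06 to 4.32). A q of 1 was listed for 97.7% of DIV7 peaks and 57.0% of DIV14 peaks. Whether a site missing from a list was unbound or below its depth cannot be told apart, and a single DIV7 peak rests on few fragments. The depth moved with every difference below, and its part in them was not tested.

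Few ATRX peaks were found at both ages, and the strongest DIV14 peaks were found again most often. Of the DIV14 peaks, 11695 (12.2%, 11.9 to 12.4) were overlapped by a DIV7 peak, and of the DIV7 peaks 12029 (5.80%, 5.70 to 5.90) by a DIV14 peak. DIV14 summits lay inside DIV7 peaks in 5.58% of cases, where DIV7 peaks cover 3.26% of the sequence, a ratio of 1.71. DIV7 summits lay inside DIV14 peaks in 3.83% of cases, where those cover 2.20%, a ratio of 1.74. At equal size 6337 DIV14 peaks (6.59%, 6.43 to 6.74) and 6423 DIV7 peaks (6.67%, 6.52 to 6.83) were shared, with ratios of 1.95 and 2.03. Sharing was thus more frequent than the covered sequence alone gives, while at equal size 93.4% of DIV14 peaks and 93.3% of DIV7 peaks met no peak of the other list.

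The share found again depended on the fragments at the summit. DIV14 peaks of 7 fragments were overlapped in 7.30% of cases (6.67 to 7.97), those of 11 in 13.4% and those of 21 or more in 47.9% (41.1 to 54.8). DIV7 peaks of 3 fragments were overlapped in 4.46% (4.27 to 4.66), those of 9 in 19.9% (15.9 to 24.3) and those of 12 or more in 11.3% (8.09 to 15.3). The DIV7 peaks with the most fragments were thus no more often shared than those of middle strength. Of the 4029 DIV14 peaks with a q of at most 0.05, 30.2% (28.8 to 31.6) were overlapped by the full DIV7 list, and of the 385 DIV7 peaks 16.6% (13 to 20.7) by the full DIV14 list. Summits of these DIV14 peaks lay inside a DIV7 peak in 12.5% of cases, against 5.58% for all DIV14 summits. These DIV14 peaks were also wider, with a median of 954 bp against 432 bp in the full list. The part of width in the overlap was not tested. Of each q-limited list, 24 peaks met a peak of the other. These lists cover 0.0104% (DIV7) and 0.188% (DIV14) of the sequence. Summits lay inside the other list's peaks 33.1 times (DIV7) and 40.6 times (DIV14) as often as the covered share gives.

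**Figure D1:**
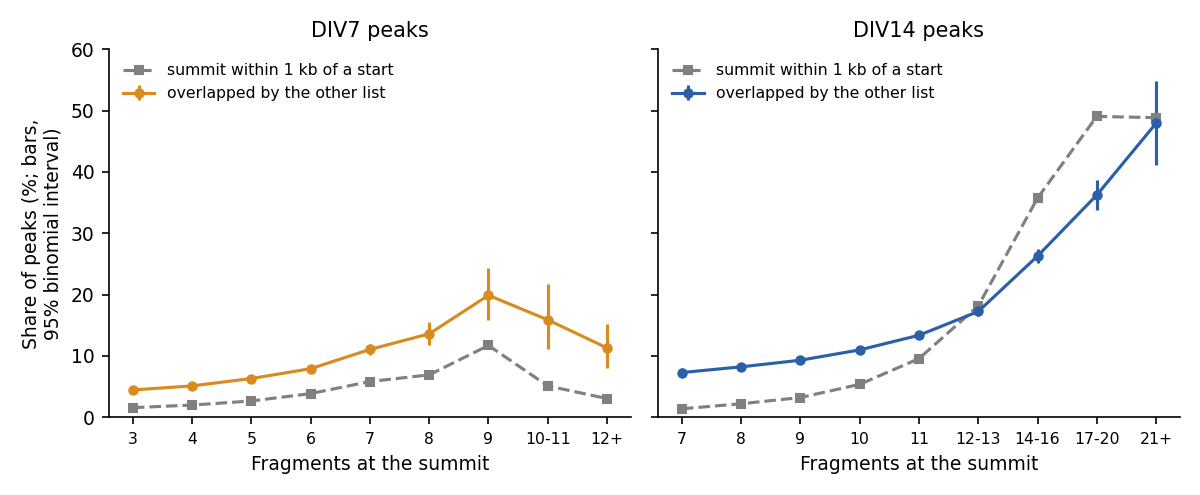
Share of DIV7 peaks (left) and DIV14 peaks (right) overlapped by the other full list, by number of fragments at the summit, with 95% exact binomial intervals, beside the share of summits within 1 kb of a protein-coding start (grey squares). At DIV14 the overlap climbs with fragments from 7.30% to 47.9% and the share at starts levels off in the top class, while at DIV7 they reach their highest values at 9 fragments and are lower above it. The part of peak width in the overlap was not tested.

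Many of the strongest DIV7 peaks lay in tall signal on a high background. Of the DIV7 peaks with a q of at most 0.05, 118 (30.6%) had a local background over 10 fragments or one that could not be recovered from the listed values, against 13 (0.323%) at DIV14. The first 100 kb of sequence on chromosome 9 held 26 of these DIV7 peaks and 3 of the DIV14 peaks. The first 10% of each chromosome, next to the centromere in the mouse, held 23.1% of the DIV7 peaks at this q and 7.74% of those at DIV14. With the full lists, 10.5% of DIV7-only and 8.11% of DIV14-only peaks lay there, and the other stretches of 10% held 9.73% to 10.3% of DIV7-only and 8.93% to 11.3% of DIV14-only peaks. The last 10% of each chromosome held 15.8% (12.3 to 19.9) of the DIV7 and 12.3% (11.3 to 13.3) of the DIV14 peaks at this q. The strongest DIV7 peaks were thus in excess at both chromosome ends, more so near centromeres, and the excess was small in the full list.

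Where peaks were shared, their fold at DIV7 had little relation to that at DIV14. Over the 11695 shared DIV14 peaks, the rank correlation of the authors' folds was 0.089, given as a description because peaks of a list share library and depth. Shared DIV7 peaks had a median of 4 fragments and a 90th percentile of 6, so many of their folds tie. A low correlation therefore cannot show that strength was unrelated. The summits lay a median of 240 bp apart, and 51.8% were within 250 bp. Shared DIV14 peaks had a median width of 563 bp and DIV14-only peaks of 421 bp, and 22.0% against 6.44% were at least 1 kb wide. Shared DIV7 peaks were 364 bp and DIV7-only peaks 328 bp wide. Around DIV14 summits, DIV7 summits were 1.53 times as dense as the list mean within 250 bp, 1.18 times at 2 to 5 kb and 1.10 times at 20 to 50 kb.

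By position in the genome, DIV7-only peaks lay closer to the shares of sequence, DIV14-only peaks lay toward gene starts and long genes, and shared peaks lay most of all at gene starts. Within 1 kb of the start of a protein-coding gene, which takes up 1.46% of the sequence, lay 1.44% of DIV7-only summits (1.38 to 1.49), 7.15% of DIV14-only summits (6.98 to 7.33) and 17.9% of shared DIV14 summits (17.2 to 18.6). Shared DIV7 summits were there in 18.1% of cases. Over the whole lists the shares were 2.40% at DIV7 and 8.45% at DIV14. At equal size the shares were 1.55% for DIV7-only, 7.56% for DIV14-only and 21.1% for shared DIV14 summits. Shared peaks were also the wider ones, and the part of width in this order was not tested.

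Inside spans of protein-coding genes, 40.9% of the sequence, lay 38.3% of DIV7-only, 53.8% of DIV14-only and 57.5% of shared DIV14 summits. Genes of at least 500 kb, which make up 7.5% of the sequence and include many synaptic and adhesion genes, held 7.75% of DIV7-only (7.63 to 7.86) and 12.1% of DIV14-only summits (11.9 to 12.3). Genes of 200 to 500 kb held 9.55% and 14.5%, against 9.15% of the sequence. Both kinds of peak were above the share of sequence in these long genes, DIV14-only peaks by more. In genes of 10 to 50 kb, 8.61% of the sequence, lay 6.81% of DIV7-only and 8.20% of DIV14-only summits.

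Outside genes the order turned. Sites at least 100 kb from any annotated gene, 7.52% of the sequence, held 7.75% of DIV7-only (7.63 to 7.87), 4.45% of DIV14-only (4.31 to 4.59) and 3.07% of shared DIV14 summits. Within 10 kb outside a gene, 16.5% of the sequence, the shares were 16.2%, 13.7% and 14.4%. In bins of 1 Mb at equal size, DIV7 peaks numbered 39 (median) with an SD between bins of 10.3, and DIV14 peaks 37 with an SD of 24.4. The 270 bins without a protein-coding gene held a mean of 39.8 DIV7 and 25.5 DIV14 peaks. DIV14 peaks were thus more unevenly spread over the chromosomes.

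**Figure D2:**
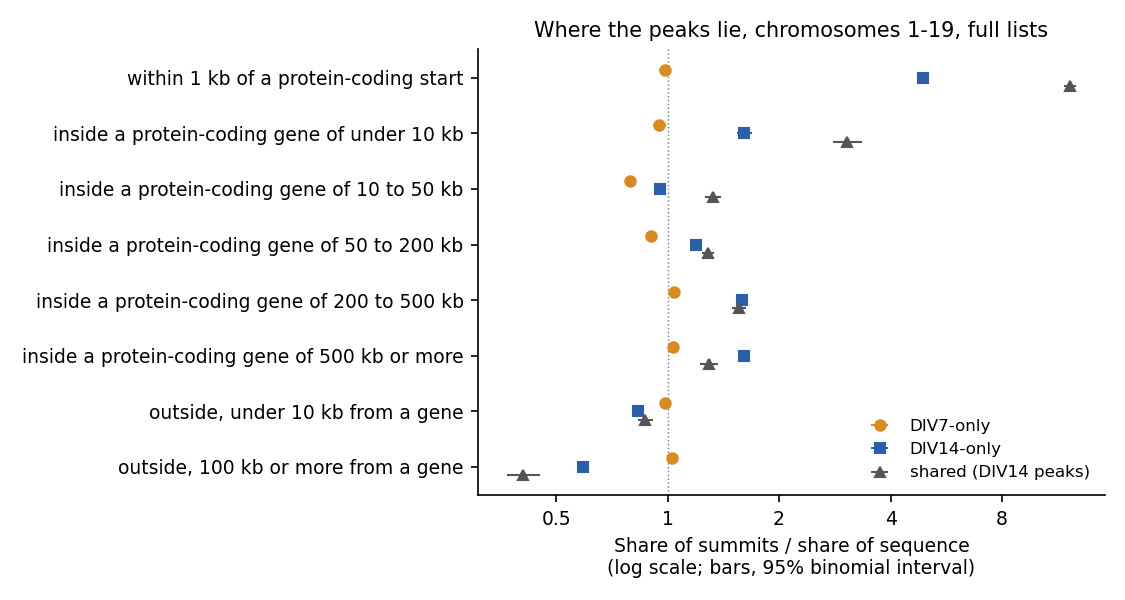
Share of summits at each kind of position divided by the share of sequence there (log scale, with 95% exact binomial intervals), for DIV7-only, DIV14-only and shared peaks of the full lists. DIV7-only peaks sit near 1 at most positions and below it in genes of 10 to 50 kb (6.81% of summits on 8.61% of sequence), DIV14-only and shared peaks lie to the right at gene starts (7.15% and 17.9% of summits on 1.46% of sequence) and to the left far from genes.

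At single megabases the ages differed most in gene clusters and in gene-poor sequence. At equal size DIV7 exceeded DIV14 most on chromosome 4 from 147000001 to 148000000 (79 against 6 peaks), then on chromosome 7 from 22000001 to 23000000 (65 against 0) and from 20000001 to 21000000 (57 against 0). Chromosome 18 from 37000001 to 38000000, which holds most of the clustered protocadherin genes, had 92 DIV7 and 35 DIV14 peaks, and a bin without coding genes on chromosome 1 from 113000001 to 114000000 had 63 and 14. DIV14 exceeded DIV7 most on chromosome 2 from 7000001 to 8000000 (187 against 87) and on chromosome 14 from 93000001 to 94000000 (126 against 33). Next came chromosome 1 from 25000001 to 26000000 (136 against 44), chromosome 3 from 21000001 to 22000000 (146 against 55) and chromosome 9 from 112000001 to 113000000 (139 against 54). These 5 bins have 0 to 2 protein-coding genes.

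In 33 of 2413 bins of 1 Mb, on 10 chromosomes, no DIV14 peak was listed. The DIV7 list had 1911 peaks there (0.921% of its peaks), from 2 to 126 a bin. Against a DIV7 median of 86 peaks in the other bins, these 33 had 54, so they were sparse at DIV7 too. These bins hold 348 protein-coding genes, of which 186 are olfactory or vomeronasal receptor genes. The DIV14 library of neurons with TBC1D3, whose background was 1.22 fragments, had 650 peaks in the same bins (0.333% of its peaks). That with MICAL1-M1, background 2.61, had 57 (0.0407%). Peaks in these bins were therefore not limited to DIV7. Whether reads with several possible places were treated alike in the libraries is not given in the sources used here and was not tested.

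ATRX summits gathered at transcription starts in both lists, steeply at DIV14 and weakly at DIV7. Over 3965 genes of at least 10 kb with a single listed start, DIV14 summits in the first 250 bp after the start were 16.6 times as dense as the list mean, and DIV7 summits 2.91 times (3.83 times at equal size). In the 250 bp before the start the density was 8.24 times the mean at DIV14 and 1.33 times at DIV7. Both lists had their highest value just downstream of the start. At the 3′ ends of the same genes the first 250 bp past the end had 0.579 times the mean at DIV14 and 0.619 times at DIV7, so neither list gathered there.

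**Figure D3:**
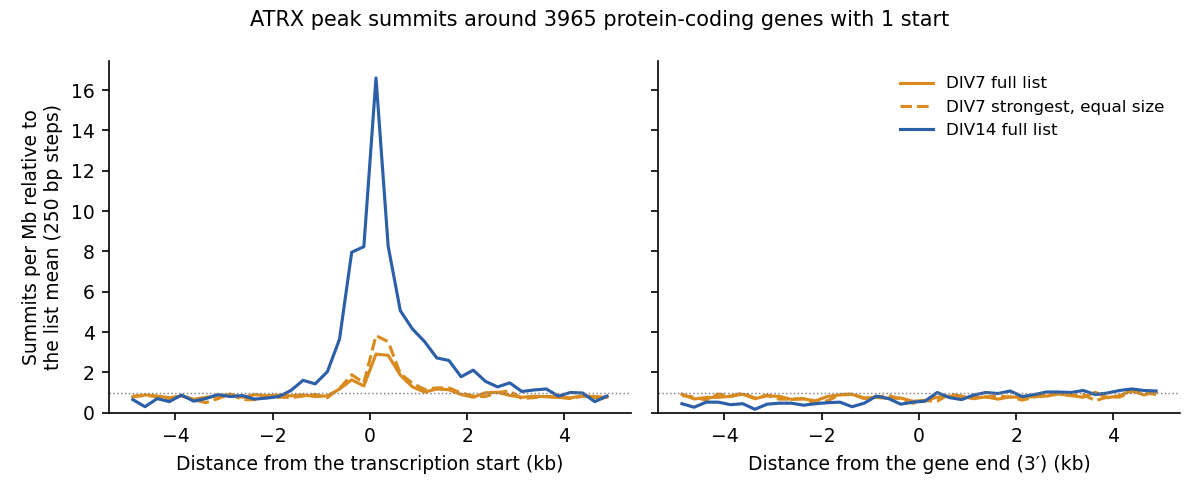
Density of ATRX summits in steps of 250 bp around the starts (left) and the 3′ ends (right) of 3965 protein-coding genes, divided by the mean density of the list, for both full lists and for DIV7 at equal size. The DIV14 line reaches 16.6 just after the start and the DIV7 line 2.91, while both lie near or below 1 at the 3′ ends.

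Gene starts were occupied, by a summit within 1 kb, more often at DIV14 although its list has fewer peaks. No start was listed on chromosome 18, so counts at starts leave it out. Of 16457 protein-coding genes, 2785 were occupied at both ages (16.9% of the genes tested), 1821 at DIV7 only (11.1%), 4771 at DIV14 only (29.0%) and 7080 at neither. In all, 4606 genes (28.0%) were occupied at DIV7 and 7556 (45.9%) at DIV14. At equal size 1726 genes were shared (10.5%), 928 were DIV7-only (5.64%) and 5830 DIV14-only (35.4%). With a q of at most 0.05, 33 genes were occupied at DIV7 (0.201%) and 1632 at DIV14 (9.92%): 11 at both (0.0668%), 22 at DIV7 only (0.134%) and 1621 at DIV14 only (9.85%). DIV14-only genes were the largest occupied class in each of these 3 settings. With the equal lists chosen by fold the shares of shared, DIV7-only and DIV14-only genes were 10.4%, 5.61% and 35.5%, and without tied peaks 8.59%, 5.23% and 32.8%. With the strongest 4000 peaks they were 0.304%, 1.09% and 9.55%. With the full lists they were 29.3%, 17.7% and 23.2% within 3 kb, so that shared genes outnumbered the others there. At equal size they were 18.2%, 9.33% and 34.3% within 3 kb. At either end of 20665 genes the full lists gave 18.5%, 15.9% and 25.8%. Around all these starts DIV7 summits numbered 4979, 1.64 times (1.60 to 1.69) the number at the list's mean density, and DIV14 summits 8134, 5.78 times (5.65 to 5.90). This ratio, called the start density here, is set against the mean of its own list, and it still moved with list length. At equal size the DIV7 value for all coding genes was 1.94. It moved by over 1.5 times for the rising genes (2.62 to 4.35), inhibitory synapse genes (2.55 to 5.03) and clustered histone genes (1.22 to 1.85).

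An occupied gene did not always have its peaks at the same place. In 1728 of the 2785 shared genes (62.0%) the strongest peaks of both ages overlapped, and the median distance of their summits was 479 bp. At Zfp422, a zinc finger gene, the summits lay 3 bp apart, with 7 fragments and a 3.5-fold enrichment at DIV7 and 23 fragments and 4.40-fold at DIV14. Arntl, which encodes the clock factor BMAL1, had summits 36 bp apart (7 and 21 fragments), and Cblb, a ubiquitin ligase gene, 42 bp apart (9 and 20 fragments). Folds are the authors' values and rank peaks within a list, so they show no change between ages. Pcdh10, a protocadherin gene outside the clusters, had summits 98 bp apart (7 and 21 fragments). At Tnpo1, an importin gene, the peaks lay 35194 bp apart at different starts, and at Dlgap4, a postsynaptic scaffold gene, they lay side by side without overlap.

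The strongest start peaks of the DIV7-only genes were small. Arl13b had 11 fragments (5.25-fold, q of 0.000398), and Fgl2, a fibrinogen-like gene, 10 fragments (4.82-fold, q of 0.00335). Atpaf1, an assembly factor of ATP synthase, Cdh22, a cadherin, Cep72, a centrosomal protein, Meis1, a homeodomain factor, Slc35a3, a Golgi nucleotide-sugar transporter, and Zfyve9, an adaptor of TGF-beta receptors, each had 9 fragments (4.38-fold, q of 0.0251). The predicted genes LOC108167368 (10 fragments) and Gm36327 (38 fragments, 2.31-fold) complete the 10 strongest.

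The strongest start peaks of DIV14-only genes had from 22 to 26 fragments. Triobp, which encodes an actin-bundling protein, had 26 fragments (5.92-fold, q of 9.14e-10) and Ino80 also 26 (5.58-fold, q of 4.84e-09). Stag1, a cohesin subunit, had 25 fragments, and Acvr1, a receptor for bone morphogenetic proteins, had 24. Uap1, an enzyme that makes UDP-N-acetylglucosamine, and Zfp869, a zinc finger gene, had 23 fragments each. Zfand3 (23 fragments), the microtubule-binding Eml6 (25), the chromatin reader Ing1 (22) and the Integrator subunit Ints14 (22) complete the 10. The DIV7 list had no summit within 1 kb of these 10 starts.

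Starts occupied at DIV14 were rich in CpG, while those occupied at DIV7 only were not. The 300 bases at the start held a median of 23 CpG in shared genes, 21 in DIV14-only, 9 in DIV7-only and 4 in unoccupied genes, against 14 in all 16457. The DIV7-only class leaves out every start occupied at DIV14, so its low median is in part set by that definition. Of all genes occupied at DIV7, 60.5% were shared. Of the genes with 0 to 2 CpG, 15.47% (14.2 to 16.8) were occupied at DIV7 and 4.09% (3.41 to 4.85) at DIV14. With 31 to 65 CpG, 42.8% (40.7 to 44.8) were occupied at DIV7 and 76.0% (74.2 to 77.7) at DIV14. Occupied shares were higher at CpG-rich starts in both lists, and more steeply so at DIV14. At equal size the DIV7 shares ran from 7.33% to 26.9%. The part of base composition in fragment recovery was not tested.

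**Figure D4:**
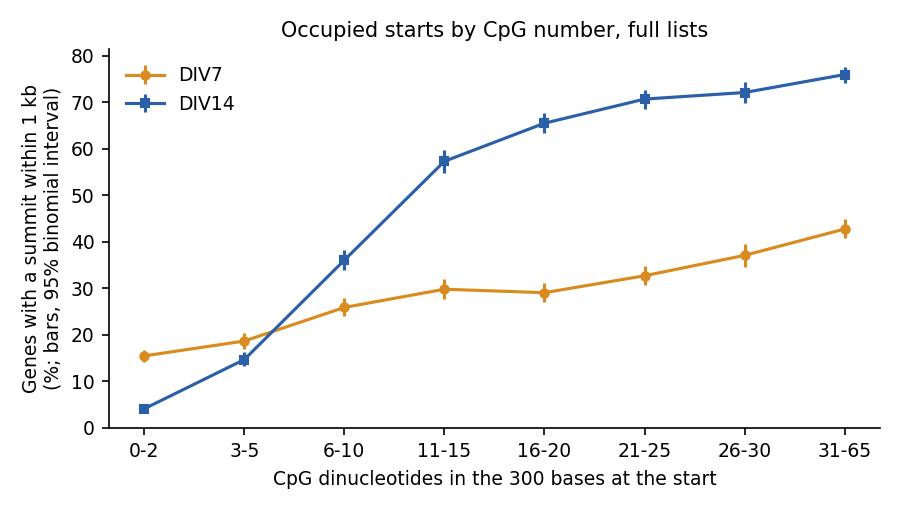
Share of protein-coding genes with a summit within 1 kb of a start, by number of CpG dinucleotides in the 300 bases at the start, for both full lists with 95% exact binomial intervals. The lines cross: at 0 to 2 CpG DIV7 is higher (15.47% against 4.09%), and at 31 to 65 CpG DIV14 is higher (76.0% against 42.8%).

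Short motifs were searched in the same 300 bases on both strands, as letters and not as sites of a factor. CCGGAA, the core that ETS factors read, was present in 28.9% of DIV14-only, 23.5% of shared and 15% of DIV7-only starts, against 19.6% of all. GGGCGGGG, a GC box, was present in 34.9%, 39.4% and 20.2%, against 24.3% of all, and it can overlap a G-quadruplex pattern. TATAAA was present in 6.73%, 6.86% and 15.6%, against 13.5%. A G-quadruplex pattern was present in 25.8% of DIV14-only, 34.7% of shared and 21.3% of DIV7-only starts, against 21.6%. Starts with a DIV7 peak only thus had more TATAAA and fewer GC-rich motifs than the DIV14 classes. This class leaves out starts occupied at DIV14 by definition, so the contrast does not describe all starts occupied at DIV7. Against unoccupied starts the order turned: those had CCGGAA in 12.9%, GGGCGGGG in 12.4%, TATAAA in 20.2% and a G-quadruplex pattern in 13.7%. Gene length also moved with occupancy: from genes under 10 kb to genes of 500 kb or more, the occupied share ran from 20.8% to 55.6% at DIV7 and from 28.3% to 81.1% at DIV14.

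Of 23 gene lists with listed starts, 21 had a higher start density at DIV14 and 2 at DIV7. In 13 of the 21 the counting intervals of the ages did not overlap, and in 10 at equal size. By number of occupied genes, 17 lists were higher at DIV14 and 5 at DIV7 with the full lists, and 21 and 1 at equal size. The lists are therefore read by start density, beside 1.64 at DIV7 and 5.78 at DIV14 for all protein-coding genes, and by number of occupied genes beside 28.0% and 45.9%.

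Synaptic genes had start peaks at both ages. Presynaptic release genes, which dock and fuse transmitter vesicles, were occupied in 18 of 41 cases at DIV7 and 32 at DIV14, and all 18 of the former were shared. Their start density was 2.18 (1.31 to 3.4) at DIV7 and 9.15 (6.44 to 12.6) at DIV14. Syt1, the calcium sensor of fast release, had 5 fragments at DIV7 and 15 at DIV14, and Rims1, an active-zone scaffold, 7 and 21, with overlapping peaks at Rims1 only. Erc1, an active-zone protein, had overlapping peaks with summits 107 bp apart (4 and 17 fragments). Bsn, which encodes the active-zone protein Bassoon, and Slc17a7, the vesicular glutamate transporter VGLUT1, had a start peak at DIV14 only (15 and 13 fragments).

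Genes of the glutamate postsynapse were occupied in 22 of 39 cases at DIV7 and 27 at DIV14, 18 of them at both. Their start density was 3.45 (2.38 to 4.85) at DIV7 and 7.89 (5.5 to 11) at DIV14. Grm7, a metabotropic glutamate receptor, had overlapping peaks of 6 and 18 fragments, and Cnih3, an AMPA receptor auxiliary protein, of 6 and 15 with summits 88 bp apart. Gria2, the AMPA receptor subunit that limits calcium entry, and Dlg1, a scaffold, had peaks of 16 fragments at DIV14 only. Grin2d, an NMDA receptor subunit, and Shank3, a scaffold, had peaks at DIV7 only, of 5 and 4 fragments. Inhibitory synapse genes were occupied in 11 and 20 of 25 cases, with Gabrg3, a GABA-A receptor subunit, shared (6 and 12 fragments) and Slitrk3, an adhesion gene of inhibitory synapses, DIV14-only (20 fragments).

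Voltage-gated channel genes were occupied in 22 of 36 cases at DIV7 and 27 at DIV14. Cacnb2, a calcium channel beta subunit, had summits 5 bp apart (6 and 16 fragments), and Kcna4, a potassium channel, 117 bp apart (4 and 18). Scn2a, the sodium channel of immature axons, had 20 fragments at DIV14 and no start peak at DIV7. Axon guidance genes were occupied in 25 of 38 cases at DIV7 and 32 at DIV14, with a start density of 3.47 (2.29 to 5.05) and 10.5 (7.46 to 14.5). The ephrin receptors Epha7 and Epha6 had overlapping peaks of 7 fragments each at DIV7 and of 15 and 13 at DIV14. Of the adhesion genes, occupied in 13 and 22 of 28 cases, Nlgn1, which encodes neuroligin 1, had overlapping peaks of 8 and 17 fragments.

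Immediate early genes, induced within minutes of activity, were occupied in 15 of 30 cases at DIV7 and 23 at DIV14. Their start density was 2.85 (1.71 to 4.44) and 10.3 (7.07 to 14.6). Dusp5, a MAP kinase phosphatase gene, had summits 57 bp apart (6 and 19 fragments). Jun, an AP-1 subunit, had 22 fragments at DIV14 only, while Npas4, an activity-dependent transcription factor, had 5 fragments at DIV7 only.

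Genes known to rise and genes known to fall as neurons mature had start peaks at both ages. A start is listed for 17 of the 34 rising genes, of which 9 were occupied at DIV7 and 12 at DIV14. Of the 36 falling genes 25 have a listed start, of which 13 were occupied at DIV7 and 16 at DIV14. By either gene end, which measures all members, 15 and 25 of the 34 rising genes were occupied. Of the 36 falling genes 21 and 28 were. The densities there were 1.53 and 5.69 for rising genes and 2.49 and 6.59 for falling genes. The start density of the rising list was 2.62 (1.4 to 4.49) and 6.96 (3.98 to 11.3), that of the falling list 3.22 (1.80 to 5.31) and 8.79 (5.29 to 13.7), and the intervals of the lists overlapped at each age. At equal size the order of the lists at DIV7 turned, with 7 of 17 rising genes at 4.35 (2.09 to 8) and 7 of 25 falling genes at 3.24 (1.3 to 6.67). The difference between the lists was not tested. Among rising genes, Kcna2, a potassium channel, had overlapping peaks (5 and 18 fragments), Cplx1, a regulator of release, and Bdnf, a neurotrophin, had peaks at both ages without overlap, and Scn1a and Dlg4, which encodes PSD-95, had a peak at DIV14 only. Pvalb, Nrgn, Syt2 and Grin2c had a start peak at neither age. Among falling genes, Neurod2 (6 and 12 fragments), Neurod1 (4 and 10), Sox11 (3 and 20), Basp1 (6 and 15) and Dpysl5 (5 and 12) had overlapping peaks. Tubb3 and Tuba1a, tubulins of young neurons, were among 7 falling genes with a peak at DIV14 only (11 and 14 fragments). Igf2bp2, Igf2bp3, Nnat and Sox2 were the 4 falling genes with a peak at DIV7 only, with 4 to 6 fragments. Of the rising genes, 4 had a peak at DIV14 only and 1 at DIV7 only. Among all genes tested, 29.0% were DIV14-only and 11.1% DIV7-only.

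Housekeeping lists had start densities near that of all coding genes at DIV7, with intervals that include 1.64, and higher ones at DIV14. Genes for ribosomal proteins had an occupied start 14 times among 61 at DIV7 and 41 times at DIV14, with a start density of 1.37 (0.768 to 2.26) and 8.48 (6.14 to 11.4). Oxidative phosphorylation genes were occupied in 21 and 60 of 81 cases, at 1.63 (1.03 to 2.45) and 9.94 (7.67 to 12.7). Clustered histone genes were occupied in 12 and 36 of 59 cases, at 1.22 (0.587 to 2.25) and 8.18 (5.55 to 11.6), and neighbours such as H2ac19 and H3c15 share a peak. Rpl15 and Rps13 (18 fragments each), Ndufc2 of complex I (20) and H3c6 (18) were the strongest DIV14-only members. Zfp genes, many of which ATRX is known to bind through their repeated 3′ exons, were occupied at their starts in 83 and 207 of 324 cases, at 1.49 (1.20 to 1.84) and 7.95 (6.94 to 9.06). Genes of chromatin and of ATRX partners were occupied in 14 and 35 of 52 cases, with Smarca5, the ISWI remodeller, shared (5 and 23 fragments) and Trim28, the corepressor KAP1, DIV14-only (22 fragments). MICAL, RAB and actin regulators were occupied in 7 and 24 of 31 cases, at 1.29 (0.589 to 2.44) and 8.01 (5.24 to 11.7), with Cfl1, which encodes the actin-severing cofilin, DIV14-only (18 fragments).

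Genes silent in most neurons had the opposite order. Olfactory and vomeronasal receptor genes were occupied in 160 of 1254 cases at DIV7 and 7 at DIV14, with 1 gene shared. Their start density was 0.756 (0.645 to 0.881) times the list mean at DIV7 and 0.0695 (0.0280 to 0.143) times at DIV14, under it at both ages and further under it at DIV14. At either gene end the densities were 0.635 (0.559 to 0.719) and 0.0758 (0.0414 to 0.127). At equal size 75 and 7 of them were occupied. Leaving out the 33 bins without a DIV14 peak, the counts were 144 and 7 of 1080 genes. The shared gene Vmn2r29 had 20 fragments at DIV7 and 21 at DIV14, and the leading DIV7-only genes Olfr1392, Olfr66 and Olfr605 had 8, 9 and 7. In the TBC1D3 library at DIV14 87 of these genes were occupied, at a start density of 0.436, and in the MICAL1-M1 library 15, at 0.102.

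Developmental transcription factors of the Hox, Fox, Sox and related families changed order with the size of the lists. They were occupied in 62 of 141 cases at DIV7 and 35 at DIV14 with the full lists, and in 34 and 35 at equal size. Their start density was 2.51 (1.96 to 3.16) at DIV7 and 3.35 (2.44 to 4.50) at DIV14, above the mean of all starts at DIV7 and below it at DIV14. Foxa2, Hoxd1 and Irx3 led the DIV7-only members with 7, 6 and 6 fragments, and Sox12 (18), Sox6 (15) and Pax6 (12) were DIV14-only. Imprinted genes were occupied in 18 of 35 cases at DIV7 and 15 at DIV14, and in 12 and 15 at equal size. The start density of imprinted genes was 2.35 (1.41 to 3.66) at DIV7 and 4.52 (2.64 to 7.24) at DIV14. Peg3 was among the DIV7-only genes (6 fragments), with Usp29 at the same peak values, and Ube3a and Ndn among the DIV14-only genes (16 and 11).

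The clustered protocadherins, cell-surface proteins that give neurons individual identities, were another place where DIV7 peaks were denser. Over the span of 912 kb on chromosome 18 from 36930285 to 37841873, 163 DIV7 and 26 DIV14 summits were listed, 2.07 (1.77 to 2.42) and 0.712 (0.465 to 1.04) times the list means. At equal size the DIV7 list had 97 summits there. At the lower-coordinate end of the 57 genes, where their variable exons lie, 28 genes had a DIV7 summit and 7 a DIV14 summit. At the upper end 27 and 21 genes did, on 10 and 4 distinct positions because many of these genes share their last exons. By either end 40 genes were occupied at DIV7 and 23 at DIV14 with the full lists, and 23 at each age at equal size, so the difference in genes was not seen there while that in summits was. Pcdhb12 (8 fragments) and Pcdha10 (7) led the DIV7-only genes, while a peak of 17 fragments served several gamma genes at DIV14. The TBC1D3 library had 165 summits in the span (2.23 times its mean) and the MICAL1-M1 library 50 (0.941 times).

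**Figure D5:**
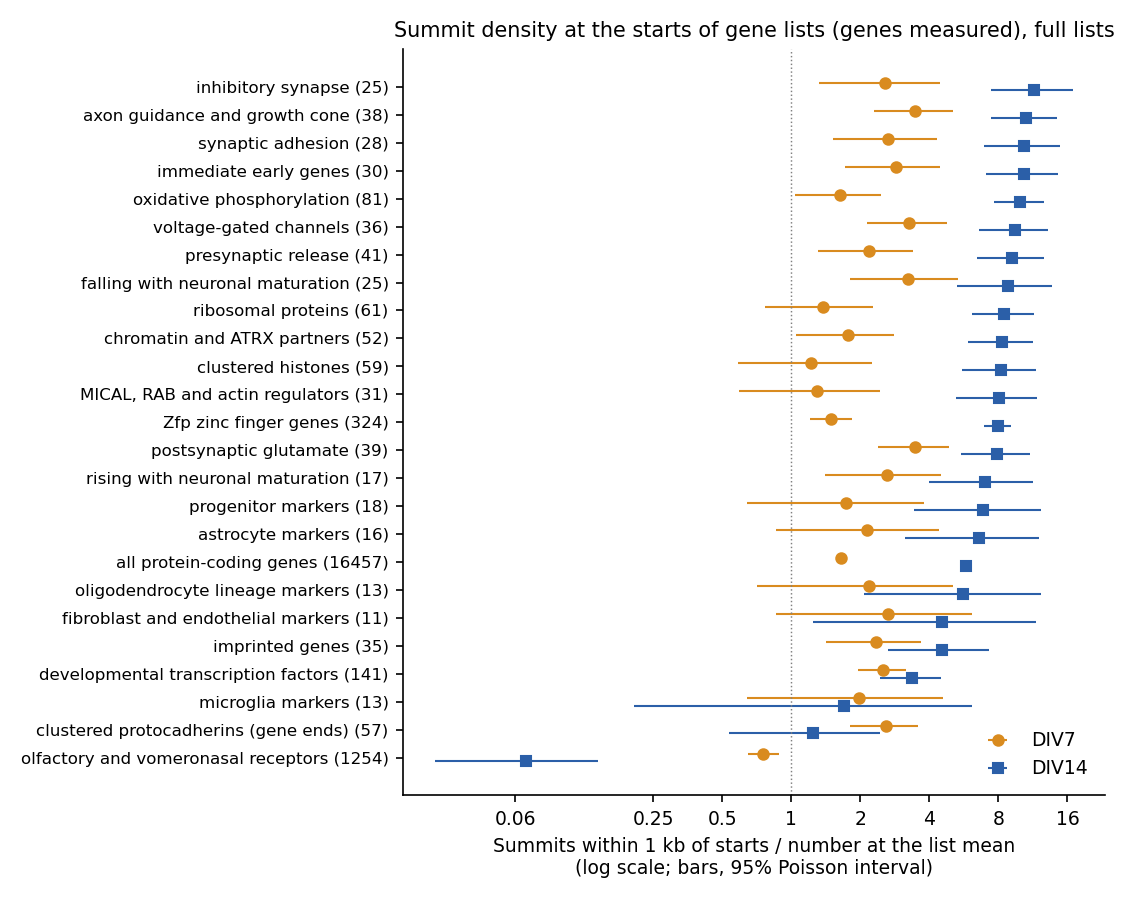
Start density of each gene list (summits within 1 kb of starts divided by the number at the list's mean density, log scale, with 95% Poisson intervals) at DIV7 and DIV14, with the number of genes measured in parentheses; protocadherins are shown by both gene ends. DIV14 lies to the right of DIV7 for most lists, and to the left for olfactory and vomeronasal receptors (0.0695 against 0.756), protocadherins (1.24 against 2.58) and microglia markers (1.69 against 1.96, with overlapping intervals).

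Markers of other cells that such cultures can hold were occupied at both ages. Of 16 astrocyte genes 7 had a start summit at DIV7 and 7 at DIV14, of 13 oligodendrocyte genes 4 and 6, of 13 microglia genes 4 and 2, of 11 fibroblast and endothelial genes 5 and 3, and of 18 progenitor genes 6 and 8. In the same order the shares were 43.8% and 43.8%, 30.8% and 46.2%, 30.8% and 15.4%, 45.5% and 27.3%, and 33.3% and 44.4%. Over all coding genes they were 28.0% and 45.9%, and the difference of these short lists from all genes was not tested. Gfap and S100b had DIV7 peaks only (5 fragments each), and Glul and Aldoc DIV14 peaks only (17 and 14). Peak lists do not measure expression, so the labelled cell type could not be checked, and the part of cell composition in the differences was not tested.

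Among the DIV14 libraries, that of TBC1D3 lay closest to DIV7 in several measures that set the ages apart. The start density of all coding genes was 1.64 in the DIV7 library, 1.76 in TBC1D3, 3.56 in MICAL1-M1 and 5.78 in the DIV14 mCherry library, the same order as their backgrounds of 1.28, 1.22, 2.61 and 3.56 fragments except between the first 2. The SD of peaks per 1 Mb bin at equal size was 10.3, 12.2, 21.2 and 24.4. At equal size DIV7 peaks were overlapped by TBC1D3 peaks in 5.55% (5.40 to 5.69) and by DIV14 mCherry peaks in 6.67% of cases. These 2 lists cover 1.57% and 2.20% of the sequence. The share of DIV7 summits inside their peaks was 2.09 and 2.03 times the covered share, and for MICAL1-M1 1.89 times. By this ratio DIV7 sites were about as close to each of these lists at equal size. Among the strongest 4000 peaks of each list, the ratio was 54.6 for TBC1D3, 11.6 for DIV14 mCherry and 14.5 for MICAL1-M1. DIV14 mCherry peaks were overlapped by those of MICAL1-M1, the other library of high background, in 18.8% (18.5 to 19). At a q of at most 0.05, 113 of the 385 DIV7 peaks (29.4%, 24.8 to 34.2) met a TBC1D3 peak at that q. For DIV14 mCherry it was 24 (6.23%) and for MICAL1-M1 29 (7.53%). The TBC1D3, DIV14 mCherry and MICAL1-M1 lists hold 296, 4029 and 616 peaks at that q. Of these 385 DIV7 peaks, 30.6% had a local background that was high or could not be recovered. On the start density, the SD per bin and the receptor genes the DIV7 library lay at the end of the range, with TBC1D3 nearest to it, and depth, age and library cannot be told apart.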

How the data were processed

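The data are ATRX ChIP-seq peak lists, 1 per library, deposited without a header in the narrowPeak layout. The tools were MACS 1.4.2, ChIPseeker 1.26.2, Bowtie 1.3.0 and SAMtools 1.9, per the submitters' processing notes. Their settings and the genome build: not given in the sources used here. That MACS version is not known to write this layout, so the caller of the lists is uncertain. The deposited score is a whole number per peak. The deposited fold is a ratio of pileup to local background. The deposited -log10 values are those of the p-value and the q-value. The last deposited column is the summit offset in bp. All were made by the authors from reads and are used as given.

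Fragments at the summit were solved from fold and p under a Poisson tail, within 0.001 in log10 p, for 99.99% of the peaks of both lists. Overlap needs 1 bp. A gene is occupied when a summit lies within 1000 bp of a start in the RefSeq table of GRCm38.p6. Starts are listed for 16457 of 20665 protein-coding genes and for no gene on chromosome 18, so every measure at starts leaves that chromosome out. The clustered protocadherins lie there and were measured at both gene ends. That the build fits rests on the summits' position at these starts. Equal size keeps the peaks of lowest p. At the limit 64341 DIV7 peaks tie, and 23991 were kept in an order spread evenly over the genome, set after a first order by position had filled the first chromosomes. Shares have exact binomial and densities exact Poisson intervals at 95%; arithmetic ran in Python 3.11.15, numpy 2.4.6, pandas 2.3.3 and scipy 1.17.1. Overlap, window and fragment functions were tested on simulated intervals and returned every planted value.

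Members and the 24 gene lists were chosen with earlier results of these data known. Named genes are the 10 strongest per class, up to 4 per list and class, and members of the maturation lists, of which only some are printed. Named bins are the 5 most different 1 Mb bins each way. The comparison with the other libraries, the protocadherin gene ends, the peaks on high background and the receptor genes outside empty bins were added after seeing the data. No replicates exist, so no p-value was computed. Input reads and the X and Y chromosomes were left out, the latter except as an alternative.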

Additional observations from a re-analysis of the deposited data

How the results depend on the processing

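The small overlap and the higher share of DIV14 summits at starts held under every alternative run, while their sizes moved; limiting both lists to a q of at most 0.05 left 385 and 4029 peaks. DIV14 peaks were then shared in 0.596% of cases, at equal size in 6.59%, among the strongest 4000 in 2.55%, with 50% reciprocal overlap in 3.64%, with summits within 250 bp in 6.61%, at equal size by fold in 6.56%, and without tied peaks in 5.92%. DIV7 peaks were shared in 6.23%, 6.67%, 2.53%, 1.69%, 3.07%, 6.65% and 6.01% of cases in the same order, and with X and Y in 5.65%. Shorter lists also cover less sequence. At that q, the share of summits inside the other list's peaks was 40.6 (DIV14) and 33.1 (DIV7) times the covered share. Among the strongest 4000 it was 18.9 and 11.6 times. Summits lay at starts in 2.40% of DIV7 and 8.45% of DIV14 cases; at a q of at most 0.05 in 8.31% and 37.7%, within 3 kb in 4.94% and 12.3%, at either gene end in 3.76% and 9.89%, and at equal size in 2.84% (DIV7).

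Shared genes numbered 1726 at equal size, 50 with the strongest 4000, 11 at a q of at most 0.05, 4823 within 3 kb, 1706 at equal size by fold and 1413 without tied peaks. DIV7-only genes numbered 928, 180, 22, 2918, 923 and 860 in that order, and 3278 at either gene end. DIV14-only genes numbered 1572 with the strongest 4000 and 1621 at that q. DIV7-only summits lay in coding spans in 37.7% at equal size and 36.6% at that q, and far from genes in 7.90% and 3.88%. DIV14-only summits did so in 65.9% and 0.974% at that q. The cause of these shifts was not tested beyond the smaller number of peaks or wider windows that the settings make. Of the DIV7 counts for single gene lists, 16 moved by over 1.5 times and 7 did not at equal size, where the DIV14 list is the same by construction. Within 3 kb 14 DIV7 counts moved and 9 did not, and 2 DIV14 counts moved and 21 did not. Settings without tied peaks and at either gene end were chosen after seeing the data.

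No paired analysis was possible because each age has 1 library. The DIV7 list has the lower background and the fewer fragments per peak, and an unbound site cannot be told apart from one below its depth. The spread between cultures is unknown.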
